A study of Mus musculus with 10 samples.

Results

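The proteasome subunit genes are the rows whose symbol is Psma, Psmb, Psmc, Psmd, Psme, Psmf or Psmg followed by a number. Of the 55809 gene rows, 48 had such a symbol, and the rule reads the symbol alone. By structure they were 8 genes of the outer (alpha) ring and 11 of the inner (beta) ring of the 20S core, 6 ATPase and 14 non-ATPase genes of the 19S regulatory particle family, 4 activators, 1 inhibitor and 4 assembly chaperones. With a mean count of at least 10, 46 of the 48 were tested. The other 2, Psma8 and Psmb11, are described by their counts alone.

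RNA-seq read pairs were counted in Treg cells from the spleen and lymph nodes of mice that had received 5-ph-IAA for 14 days. All 10 libraries came from mice with the Foxp3-AID allele, in which Foxp3 is fused to an auxin-inducible degron and which also encodes ZsGreen and Cre. In 4 libraries the ROSA26 locus was wild type (R26-WT, replicates 1 to 4). In 6 it carried TIR1(F74G) and mCherry behind a loxP-flanked stop under the CAG promoter (R26-TIR1(F74G), replicates 5 to 10), so that Cre made by the Foxp3 allele switches the ligase on in Treg cells. TIR1(F74G) binds 5-ph-IAA and brings the fusion protein to degradation, and R26-WT mice received the same compound without the ligase. The study's general sorting scheme used ZsGreen in R26-WT cells and ZsGreen with mCherry in R26-TIR1(F74G) cells. Where that scheme was used for these libraries, the gate and the genotype cannot be told apart. The labels state neither age nor sex. A figure legend of the study gives this duration for Treg transcripts compared in neonatal and adult hemizygous males. The study's running text gives a shorter duration for the neonatal cells. The labels do not say which of these the libraries are. Nothing in the labels says that each library is 1 mouse, so p-values measure the spread between these libraries.

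The proteasome is the protease that destroys proteins tagged with ubiquitin, and it is also the machine that the degron system hands Foxp3 to. Its 20S core is a barrel of stacked alpha and beta rings with the active sites inside. The 19S particle recognises the tag, removes it and threads the protein through a ring of ATPases into the core. In lymphocytes and after interferon, the catalytic subunits Psmb5, Psmb6 and Psmb7 can be replaced by Psmb8, Psmb9 and Psmb10 to give the immunoproteasome, which makes many of the peptides presented on MHC class I. When proteasome activity falls short, the transcription factor Nfe2l1 is known to raise the proteasome genes together through antioxidant response elements in their promoters. The comparison of the genotypes gives the transcript level of each proteasome gene with and without TIR1(F74G).

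The element that Nfe2l1 binds with small Maf partners was searched in the RefSeq promoters (GRCm38.p6), from 250 bases before to 50 after the annotated start. Of the 48 genes, 40 had a promoter there, and the first listed was used. The letters TGACNNNGC, read on both strands, stood in 6 of the 40 (15.0%) and in 12.5% of all 27025 promoters. The matching stretches are shown because the known element holds these letters. Their share in the members is near that in all promoters, and binding at them was not tested. They are written 5′ to 3′ on the strand of the gene, with the match in capitals, and matches on the opposite strand appear as the reverse complement.
Psmb5: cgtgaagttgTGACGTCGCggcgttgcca
Psmb6: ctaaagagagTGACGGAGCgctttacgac
Psmc6: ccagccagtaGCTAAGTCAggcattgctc
Psmd12: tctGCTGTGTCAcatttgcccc
Psmd9: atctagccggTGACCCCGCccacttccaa
Psme4: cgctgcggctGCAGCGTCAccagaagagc
In the same order they lie at chr14:54618024-54618052 (minus strand), chr11:70525338-70525366, chr14:45329587-45329615, chr11:107479278-107479299, chr5:123228149-123228177 and chr11:30771758-30771786 (plus strand). The Psmd12 stretch is cut by the edge of the searched window. The interferon-stimulated response element letters GAAANNGAA stood in 6 of the 40 promoters (15.0%), against 8.57% of all promoters. The 6 were those of Psmb3, Psmb4, Psmd4, Psmd9, Psme1 and Psmg4. The STAT site letters TTCNNNGAA stood in 3 of the 40 (7.50%), Psmb8, Psmd2 and Psmg1, against 8.47% of all, and CCAAT in 14 of the 40 (35.0%) against 37.9%. No match of one of these letter strings overlapped a match of another in the 40 promoters. A match is a description of the letters.
Psmb8: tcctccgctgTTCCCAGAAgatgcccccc
Psme1: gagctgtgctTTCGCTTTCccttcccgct
The Psmb8 stretch lies at chr17:34198088-34198116 (plus strand) and that of Psme1 at chr14:55578494-55578522 (plus strand). They are shown because both genes belong to the interferon-inducible part of the proteasome. The Psmb8 match is to TTCNNNGAA and that of Psme1 to GAAANNGAA. Of the other interferon-inducible subunit genes, Psmb9, Psmb10 and Psme2 matched neither string, and Psmb8 did not match GAAANNGAA.

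Libraries held from 24158699 to 54795718 counted read pairs. All 8 Treg marker genes were measured, with Foxp3 between 4535 and 17345 counts, and 0 of the 8 passed the test in DESeq2 or edgeR, while 3 had an unadjusted DESeq2 p under 0.05, as had 6.86% of all genes. The 3 were Ctla4, Tnfrsf18 and Izumo1r, with log2 fold changes of −0.31, −0.42 and −0.30. The median of the 8 was −0.23, with 6 below 0. Of the B cell genes, Ms4a1 had at most 4 counts a library and Pax5 at most 3, while Cd79a had from 130 to 333 and Cd79b from 370 to 1341. The 8 myeloid and dendritic markers summed to at most 1.5 TPM (counts divided by gene length and scaled to a common total per library) and the 5 erythroid markers to at most 0.993. Of 4 plasma cell markers, Mzb1 was listed at 0 and Xbp1, which T cells also express, held nearly the whole sum. Of 6 CD8 and NK markers, Ncr1 was listed at 0, Cd8a had at most 41 counts a library, and Cd8b1, with 756 to 2226, held most of the sum of 60.9 to 78.2 TPM in R26-WT and 61.8 to 69.2 in R26-TIR1(F74G). Of these 6, Eomes alone was called by DESeq2 and by edgeR, higher in R26-TIR1(F74G). Of 7 stress and dissociation genes, DESeq2 called Fos and Jun lower in R26-TIR1(F74G), by log2 fold changes of −0.88 (SE 0.26) and −0.71 (SE 0.16). The DESeq2 adjusted p was 0.0493 for Fos and 0.00109 for Jun, and by edgeR it was 0.244 and 0.0473. The part of these genes in the proteasome values was not tested. In bulk RNA, fewer cells of a type and less RNA per cell cannot be told apart.

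No proteasome subunit gene passed the test between the genotypes. DESeq2 called 0 of the 46 tested genes at an adjusted p under 0.05, where 1.74% of all 16363 tested genes were called. At an unadjusted p under 0.05 it had 0 of 46, against 6.86% of all genes. The edgeR quasi-likelihood test called 0 of 46 (0.373% of all genes), with 0 at an unadjusted p under 0.05, and limma voom called 0 (0.489% of all genes), likewise with 0 unadjusted. The smallest DESeq2 adjusted p among the 46 was 0.99996 and the smallest unadjusted p was 0.319, for Psmc6. For each of the 46 genes the normalized counts of the 2 groups overlapped, while over all tested genes 2.37% had groups that did not overlap.

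The log2 fold changes, R26-TIR1(F74G) over R26-WT, lay between −0.15 (Psmd10) and 0.10 (Psmd2). Their median was −0.048, beside 0.00063 over all tested genes. Values below 0 were found for 38 of the 46 genes (82.6%), beside 49.9% of all genes. The size and sign of that lean depended on single libraries. Without R26-WT replicate 3 the median was 0.024 with 10 of 46 below 0, without R26-WT replicate 4 it was 0.015 with 19 below 0, and without R26-TIR1(F74G) replicate 7 it was 0.015 with 20 below 0. The lean was larger without R26-WT replicate 1 (−0.12, 42 of 46 below 0), R26-WT replicate 2 (−0.12, 42 below 0), R26-TIR1(F74G) replicate 6 (−0.098, 41 below 0) or R26-TIR1(F74G) replicate 9 (−0.11, 40 below 0), and by limma voom with all libraries (−0.11, 42 below 0). By class, the median was above 0 in 1 of 8 classes with all libraries and in 8, 5 and 6 of 8 without R26-WT replicate 3, R26-WT replicate 4 and R26-TIR1(F74G) replicate 7, so the class medians given below depend on the same libraries. In each of the 46 genes the difference between the groups was smaller than 1 SD of the libraries within a group. In the main DESeq2 fit the 95% intervals of the fold change, taken gene by gene, all stayed inside a 1.5-fold change in either direction. The lowest bound was 0.706 (Psmd10) and the highest 1.49 (Psme4). With the trend on length and GC content removed, as described below, the interval of Psmd11 passed that limit (log2 fold change −0.15, SE 0.24). The 1.5-fold limit is thus that of the main fit.

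**Figure D1:**
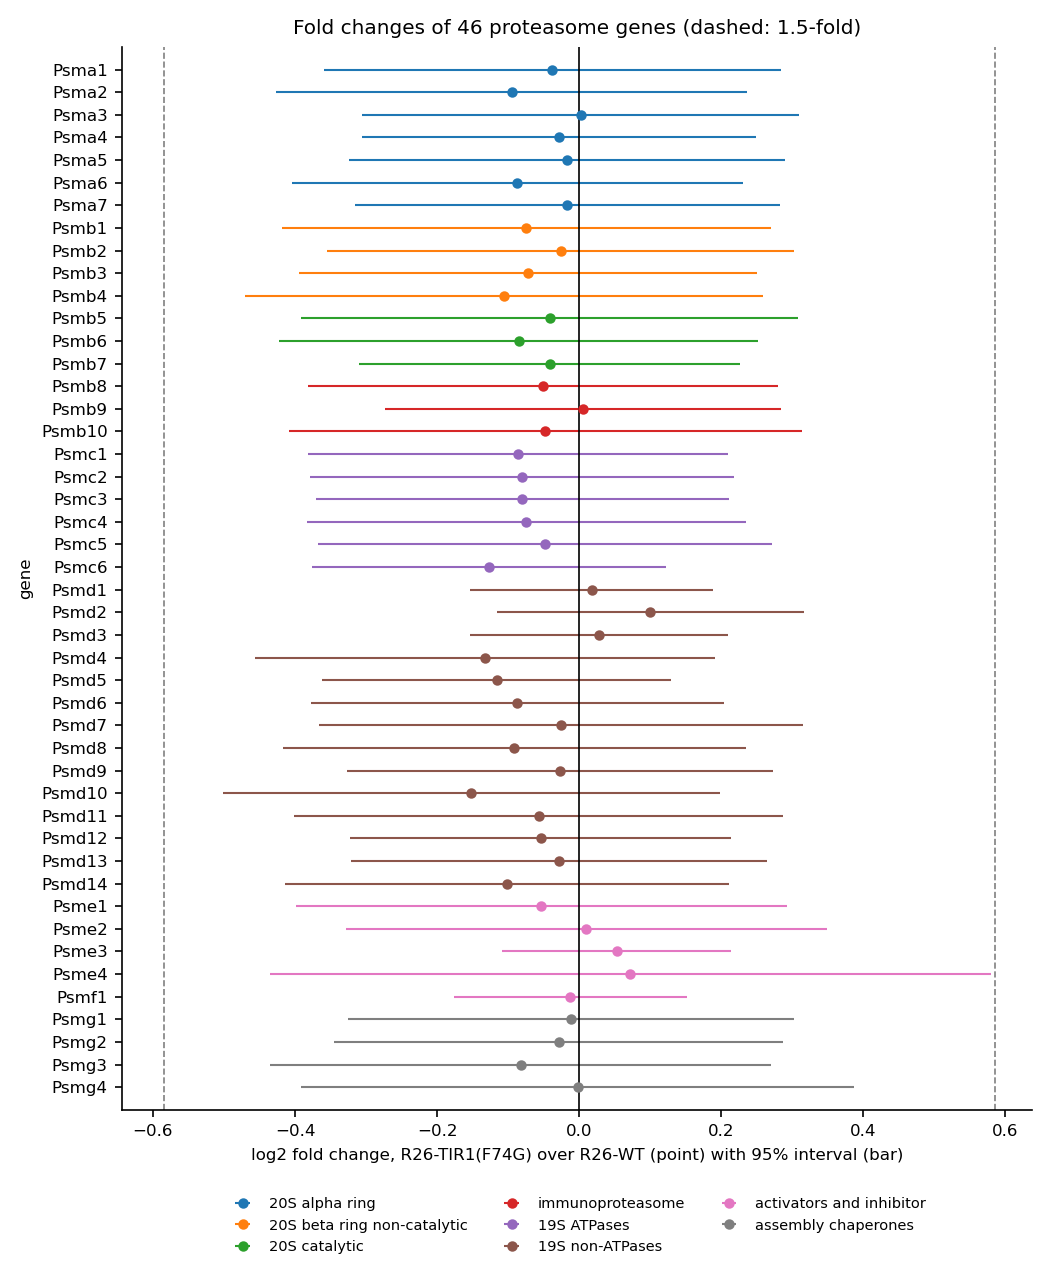
Log2 fold change of each of the 46 tested proteasome genes (x axis, R26-TIR1(F74G) over R26-WT), with points for the DESeq2 estimate, bars for the 95% interval and colours for the class. Every interval crosses 0, and all lie between the dashed lines at a 1.5-fold change.

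The alpha ring forms the gate of the core barrel. Of its 7 tested genes, 6 had a log2 fold change below 0, and the median was −0.028. Psma2 (chromosome 13, 14787825 to 14848821, plus strand, GRCm39 as for all gene positions here) had the lowest value of the class. Its normalized counts (counts divided by DESeq2 size factors) were 11127, 10298, 15912 and 14555 in R26-WT replicates 1 to 4 and ran from 9448 to 14405 (median 11670.1) in R26-TIR1(F74G). Replicates 3 and 4 of R26-WT were the high ones, and the groups overlapped. The log2 fold change was −0.10 (SE 0.17). Psma3 (chromosome 12, 71021395 to 71043121, plus strand) had the highest, 0.0018 (SE 0.16), with 2288, 2219, 2956 and 2796 in R26-WT and values from 2117 to 3049 (median 2549) in R26-TIR1(F74G). Psma8, the testis-type alternative to Psma7 on chromosome 18, had from 0 to 20 raw counts a library and 72 over all 10.

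The beta ring carries the active sites, and its 4 members without one are Psmb1 to Psmb4. All 4 log2 fold changes were below 0, with a median of −0.074. Psmb4 (chromosome 3, 94791404 to 94794272, minus strand) had the lowest, −0.11 (SE 0.19), from 6268, 5728, 9214 and 8536 normalized counts in R26-WT and from 4968 to 8399.8 (median 6794) in R26-TIR1(F74G). Its R26-WT replicates 3 and 4 exceeded every R26-TIR1(F74G) library, and replicates 1 and 2 lay inside their range. Psmb2 (chromosome 4, 126571423 to 126603507, plus strand) had the highest, −0.026 (SE 0.17), with 6552, 6906, 9449 and 9411 in R26-WT and values from 6096 to 9509 (median 7694) in R26-TIR1(F74G).

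The constitutive catalytic subunits are Psmb5, which cuts after hydrophobic residues, Psmb6, which cuts after acidic ones, and Psmb7, which cuts after basic ones. Psmb5 (chromosome 14, 54851576 to 54855479, minus strand) had 2229, 2235, 3140 and 3029 normalized counts in R26-WT replicates 1 to 4 and from 1894 to 3179 (median 2507) in R26-TIR1(F74G). For Psmb6 (chromosome 11, 70416193 to 70418684, plus strand) the R26-WT values were 8096, 7631, 11724 and 10437, and those of R26-TIR1(F74G) ran from 6795 to 10685 (median 8844). Psmb7 (chromosome 2, 38478048 to 38534099, minus strand) had 2194, 2089, 2747 and 2569 in R26-WT and from 1892 to 2763 (median 2293) in R26-TIR1(F74G). In all 3 genes R26-WT replicates 1 and 2 were low and 3 and 4 high, and the R26-TIR1(F74G) libraries began below that range and overlapped it. The log2 fold changes were −0.042 (SE 0.18) for Psmb5, −0.085 (SE 0.17) for Psmb6 and −0.042 (SE 0.14) for Psmb7, with fold intervals of 0.762 to 1.24, 0.746 to 1.19 and 0.807 to 1.17.

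The immunoproteasome subunits were abundant in both genotypes. Psmb8 (chromosome 17, 34416695 to 34420428, plus strand), which takes the place of Psmb5, had 24107, 24151, 33500 and 33867 normalized counts in R26-WT and from 20948 to 33740.3 (median 27507) in R26-TIR1(F74G). Psmb9 (chromosome 17, 34400961 to 34406738, minus strand), which takes the place of Psmb6, had 17658, 16668, 23575 and 24171 in R26-WT, and its R26-TIR1(F74G) values ran from 18022 to 22563 (median 20694). Psmb10 (chromosome 8, 106662367 to 106665076, minus strand), the counterpart of Psmb7, had 12460, 11888, 16483 and 18126 in R26-WT and from 10155 to 17303 (median 14275) in R26-TIR1(F74G). For Psmb9 all 6 R26-TIR1(F74G) libraries lay within the range of the R26-WT libraries, and for the other 2 the R26-TIR1(F74G) range began lower. Log2 fold changes were −0.051 (SE 0.17), 0.0053 (SE 0.14) and −0.048 (SE 0.18), with fold intervals of 0.767 to 1.21, 0.827 to 1.22 and 0.754 to 1.24. Psmb11, the thymus-specific catalytic subunit of cortical epithelium (chromosome 14, 54858890 to 54867013, plus strand), had 0 counts in all 10 libraries, which allows up to 3 counts a library, or from 0.0547 to 0.124 CPM depending on the depth of the library (counting error only).

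**Figure D2:**
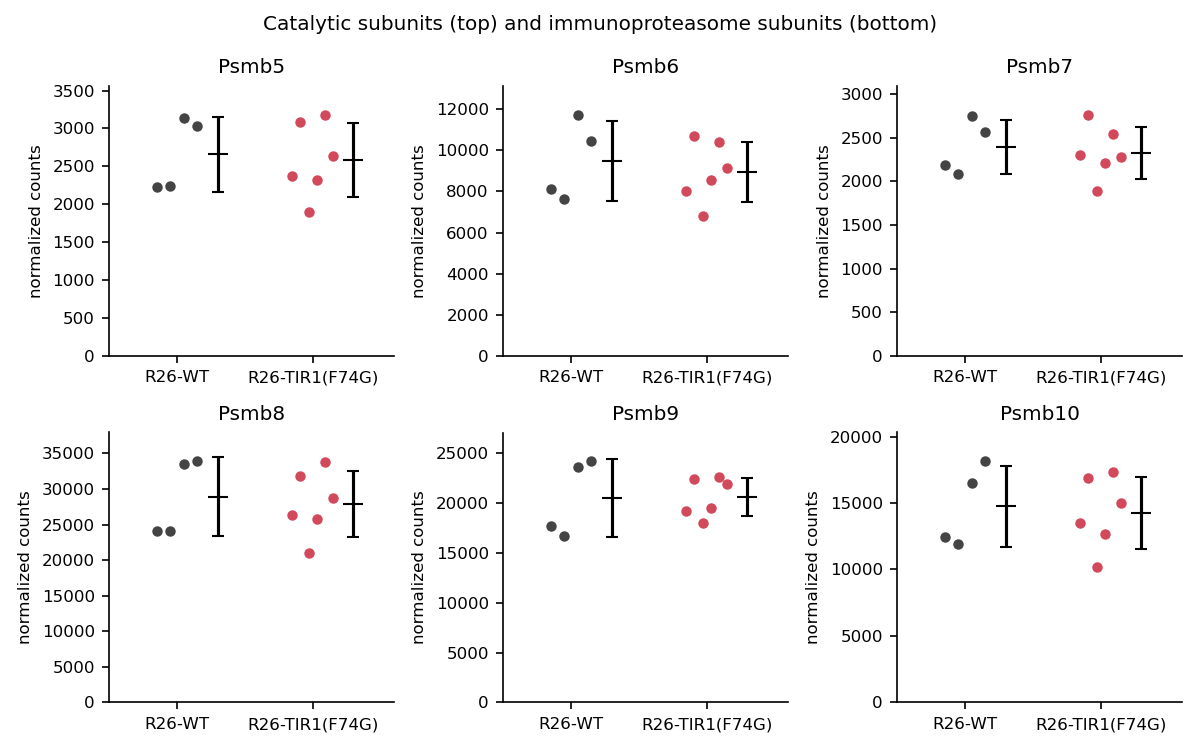
Normalized counts (y axis, from 0) of Psmb5, Psmb6 and Psmb7 above and of Psmb8, Psmb9 and Psmb10 below, with 1 point a library for 4 R26-WT and 6 R26-TIR1(F74G) libraries and bars for the mean ± SD. In each panel the 2 groups overlap, and within R26-WT replicates 1 and 2 sit below 3 and 4.

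The balance of immunoproteasome to constitutive transcripts was taken within each library. On the TPM scale, which divides by gene length, the ratio of Psmb8 to Psmb5 was 2.89 ± 0.0583 (SD) over 4 R26-WT libraries and 2.88 ± 0.0840 over 6 R26-TIR1(F74G) libraries, and over all 10 libraries it ran from 2.75 to 2.97. For Psmb9 to Psmb6 the ratio was 1.11 ± 0.0640 and 1.19 ± 0.10, and for Psmb10 to Psmb7 it was 12.3 ± 1.3 and 12.2 ± 1.08. In all 3 pairs the ranges of the groups overlapped. The size of the ratio depended on the length used. The Length column sums every annotated exon base of a gene, 3381 for Psmb8 and 899 for Psmb5. With the coding length of the main transcript in its place, the mean ratio over all libraries went from 2.89 to 10.4 for Psmb8 to Psmb5, from 1.16 to 2.46 for Psmb9 to Psmb6 and from 12.2 to 6.18 for Psmb10 to Psmb7. By either length each immunoproteasome subunit stood above its constitutive counterpart. Psmb5 shares sequence with other rows, and Psmb5, Psmb7 and Psmb8 overlap other genes, as given below. Tap1 overlaps 5.79% of the exon bases of Psmb9. These ratios are therefore of rows.

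**Figure D3:**
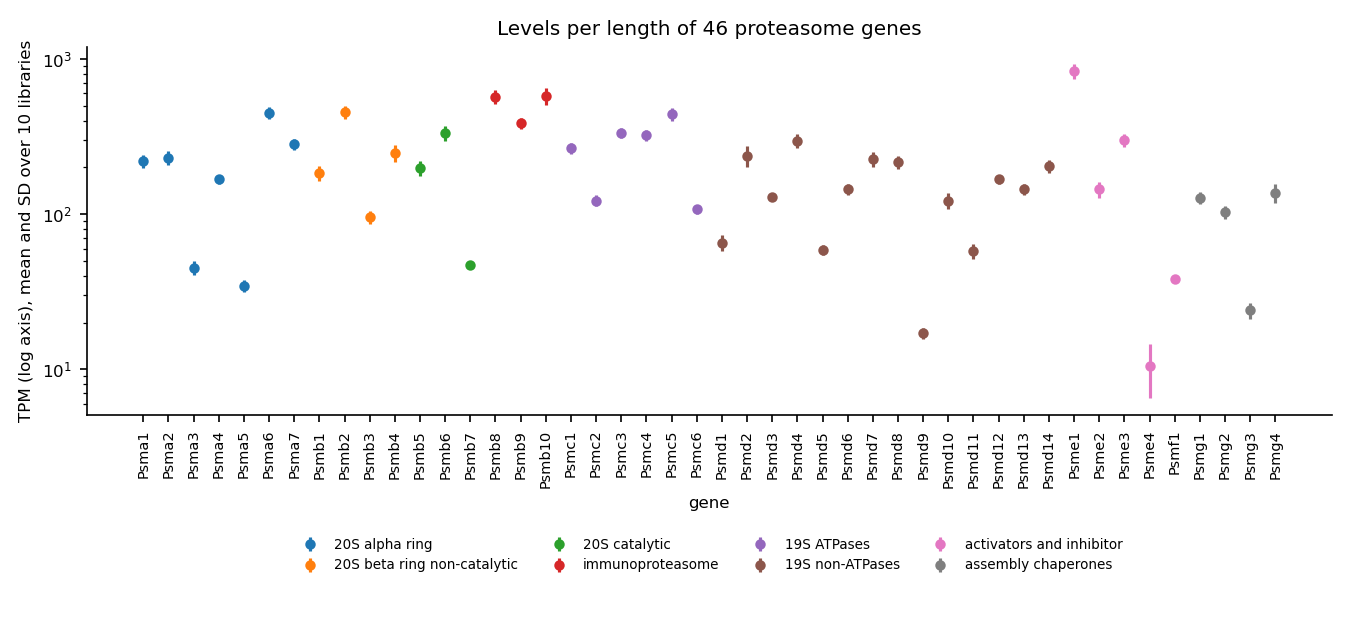
Level of each of the 46 tested genes in TPM by the Length column (y axis, log scale), with points for the mean and bars for the SD over 10 libraries, coloured by class. Levels run from 10.5 TPM for Psme4 to 836 TPM for Psme1, with Psmb8 and Psmb10 next to the top.

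Levels per length ran from 10.5 to 836 TPM over the 46 genes, with a median of 176. With the Length column the 3 highest were Psme1 (836 ± 94.6 TPM, SD, n = 10), Psmb10 (578 ± 73 TPM) and Psmb8 (571 ± 59.2 TPM). Psmb8 and Psmb10 differed by less than 1 SD. All 3 belong to the interferon-inducible part of the proteasome. The class medians were 571 TPM for the immunoproteasome subunits, 295 for the 19S ATPases, 220.0 for the alpha ring, 216 for the non-catalytic beta ring, 198 for the constitutive catalytic subunits, 145 each for the 19S non-ATPases and for the activators and inhibitor, and 115 for the chaperones. These orders depended on the length used. With the coding length the 3 highest were Psme1 (828 TPM), Psmb8 (780.5 TPM) and Psmb9 (717 TPM), with Psmb10 at 403. The class medians then were 717 TPM for the immunoproteasome subunits, 254 for the non-catalytic beta ring, 252 for the alpha ring, 164 for the 19S ATPases, 119 for the activators and inhibitor, 117 for the 19S non-ATPases, 75.3 for the constitutive catalytic subunits and 67.7 for the chaperones. Summed over all 48 genes the level was 9893 ± 819 TPM (SD) over 4 R26-WT libraries and 9949.9 ± 825 over 6 R26-TIR1(F74G) libraries.

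The 6 ATPases Psmc1 to Psmc6 form the unfolding ring of the 19S base. All 6 log2 fold changes were below 0, with a median of −0.080. Psmc6 (chromosome 14, 45567245 to 45587162, plus strand) had the lowest of the class and the smallest unadjusted p of all 46 genes. Its normalized counts were 5605, 5020, 6394 and 6045 in R26-WT and from 4290.4 to 6271 (median 5248) in R26-TIR1(F74G). R26-WT replicate 3 was the highest of the 10 libraries, and the groups overlapped. Its log2 fold change was −0.13 (SE 0.13), with a fold interval of 0.770 to 1.09 and an edgeR unadjusted p of 0.269 in the fit over all genes. Psmc5 (chromosome 11, 106146980 to 106153946, plus strand) had the highest value of the class, −0.048 (SE 0.16), with 7835, 8131, 10474 and 10446 in R26-WT and from 6733 to 10787 (median 8614) in R26-TIR1(F74G).

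The 14 Psmd genes encode the scaffold subunits Psmd1 and Psmd2, the ubiquitin receptor Psmd4, the lid with the deubiquitinase Psmd14, and 3 chaperones of 19S assembly, Psmd5, Psmd9 and Psmd10. Of the 14 log2 fold changes in the main fit, 11 were below 0, and the median was −0.056. Psmd10 (chromosome X, 139849178 to 139857477, minus strand), known as gankyrin, had the lowest of all 46 genes. It had 2394, 2292, 3285 and 3204 normalized counts in R26-WT and from 1739.7 to 3032 (median 2532) in R26-TIR1(F74G), a log2 fold change of −0.15 (SE 0.18) with a fold interval of 0.706 to 1.15. Its R26-WT replicates 3 and 4 lay above every R26-TIR1(F74G) library and replicates 1 and 2 among them.

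Psmd2 (chromosome 16, 20470402 to 20482164, plus strand) had the highest log2 fold change of all 46 genes, 0.10 (SE 0.11), with a fold interval of 0.923 to 1.24. In Psmd2 the R26-WT libraries stood in the opposite order to most members, with 14606, 14798, 11619 and 11885 normalized counts in replicates 1 to 4, and R26-TIR1(F74G) ran from 12808 to 14945 (median 14581). R26-WT replicates 3 and 4 were below every R26-TIR1(F74G) library, and replicates 1 and 2 were near their upper end. Psmd5 (chromosome 2, 34739746 to 34764980, minus strand) had 6630, 5954, 6692 and 6869 in R26-WT and from 4590.4 to 6798 (median 6184) in R26-TIR1(F74G), with a log2 fold change of −0.12 (SE 0.13). The lowest of the 10 libraries in Psmd5 was R26-TIR1(F74G) replicate 7 with 4590 normalized counts. The receptor Psmd4 had −0.13 (SE 0.16) and the deubiquitinase Psmd14 −0.10 (SE 0.16), both within the spread of their libraries.

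The activators open the core without the 19S particle. Psme1 and Psme2 form the interferon-inducible PA28 cap, Psme3 is its nuclear relative and Psme4 encodes PA200. Psme1 (chromosome 14, 55815580 to 55818986, plus strand) had 22613, 22640, 32296 and 33288 normalized counts in R26-WT and from 19724 to 31862 (median 26238) in R26-TIR1(F74G). Psme2 (chromosome 14, 55824898 to 55828570, minus strand) had 3101, 3353, 4077 and 4384 in R26-WT, and its R26-TIR1(F74G) values ran from 2751 to 4594 (median 3676). In both genes R26-WT replicates 1 and 2 were low and the groups overlapped, with log2 fold changes of −0.053 (SE 0.18) and 0.010 (SE 0.17).

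Psme3 (chromosome 11, 101207039 to 101214363, plus strand) was among the steadiest members. It had 12961, 13286, 11488 and 12391 normalized counts in R26-WT and from 12150 to 13848 (median 13043) in R26-TIR1(F74G), a log2 fold change of 0.053 (SE 0.082) with a fold interval of 0.928 to 1.16. Psme4 (chromosome 11, 30721726 to 30830361, plus strand) was the most variable. It had 1321, 1640, 993 and 938 in R26-WT and from 768 to 2139.7 (median 1184) in R26-TIR1(F74G), where the highest value was that of replicate 7 and the lowest that of replicate 9. Its log2 fold change was 0.072 (SE 0.26), and the SD between libraries of a group was 0.44 on the log2 scale, beside a median of 0.24 over the 46 genes. Psmf1 (chromosome 2, 151557732 to 151586106, minus strand), the inhibitor PI31, had 3394, 3434, 3784 and 3786 in R26-WT and from 3389 to 3859 (median 3502) in R26-TIR1(F74G), with a log2 fold change of −0.013 (SE 0.084) and the smallest SD within groups, 0.079.

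The chaperones Psmg1 to Psmg4 build the alpha ring. All 4 log2 fold changes were below 0 in the main fit, and the lowest was that of Psmg3 (chromosome 5, 139809347 to 139812640, minus strand) at −0.082 (SE 0.18). Psmg3 had 915, 832, 1252 and 1213 normalized counts in R26-WT and from 719 to 1204 (median 1005) in R26-TIR1(F74G). Psmg4 (chromosome 13, 34346947 to 34362156, plus strand), the highest of the class at −0.0021 (SE 0.20), had 988, 864, 1332 and 1301 in R26-WT and from 728 to 1402 (median 1101) in R26-TIR1(F74G). In both genes R26-WT replicates 3 and 4 were high and R26-TIR1(F74G) replicate 7 was the lowest of the 10 libraries.

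The levels of these genes varied between libraries within both genotypes. Each gene was set against its own mean over the 10 libraries on the log2 scale. The median of the 46 deviations was −0.15, −0.20, 0.26 and 0.22 in R26-WT replicates 1 to 4. In R26-TIR1(F74G) replicates 5 to 10 it was −0.10, 0.19, −0.37, −0.069, 0.23 and −0.011. High and low libraries were thus found in both groups, and the range within each group was several times the median difference between them.

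The shift took in nearly all members at once. In R26-WT replicate 2, 4 of the 46 genes were above their own mean, where 51% of all tested genes were, and in replicate 3 42 of 46 were, against 50.7% of all genes. In R26-TIR1(F74G) replicate 7 it was 3 of 46 against 50.7%, and in replicate 9 42 of 46 against 50.8%. By class the lowest library was R26-TIR1(F74G) replicate 7 for every class but the activators and inhibitor, with medians from −0.30 in the alpha ring to −0.42 in the immunoproteasome. The activators and inhibitor, whose members went different ways, had −0.074 there. The share of all counts that fell on the 48 genes followed the same order. It was 0.771%, 0.738%, 0.997% and 0.980% in R26-WT replicates 1 to 4, and from 0.674% (replicate 7) to 0.990% (replicate 9) in R26-TIR1(F74G). The group means were 0.871% ± 0.136 (SD, n = 4) and 0.853% ± 0.113 (SD, n = 6), closer together than 1 SD.

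**Figure D4:**
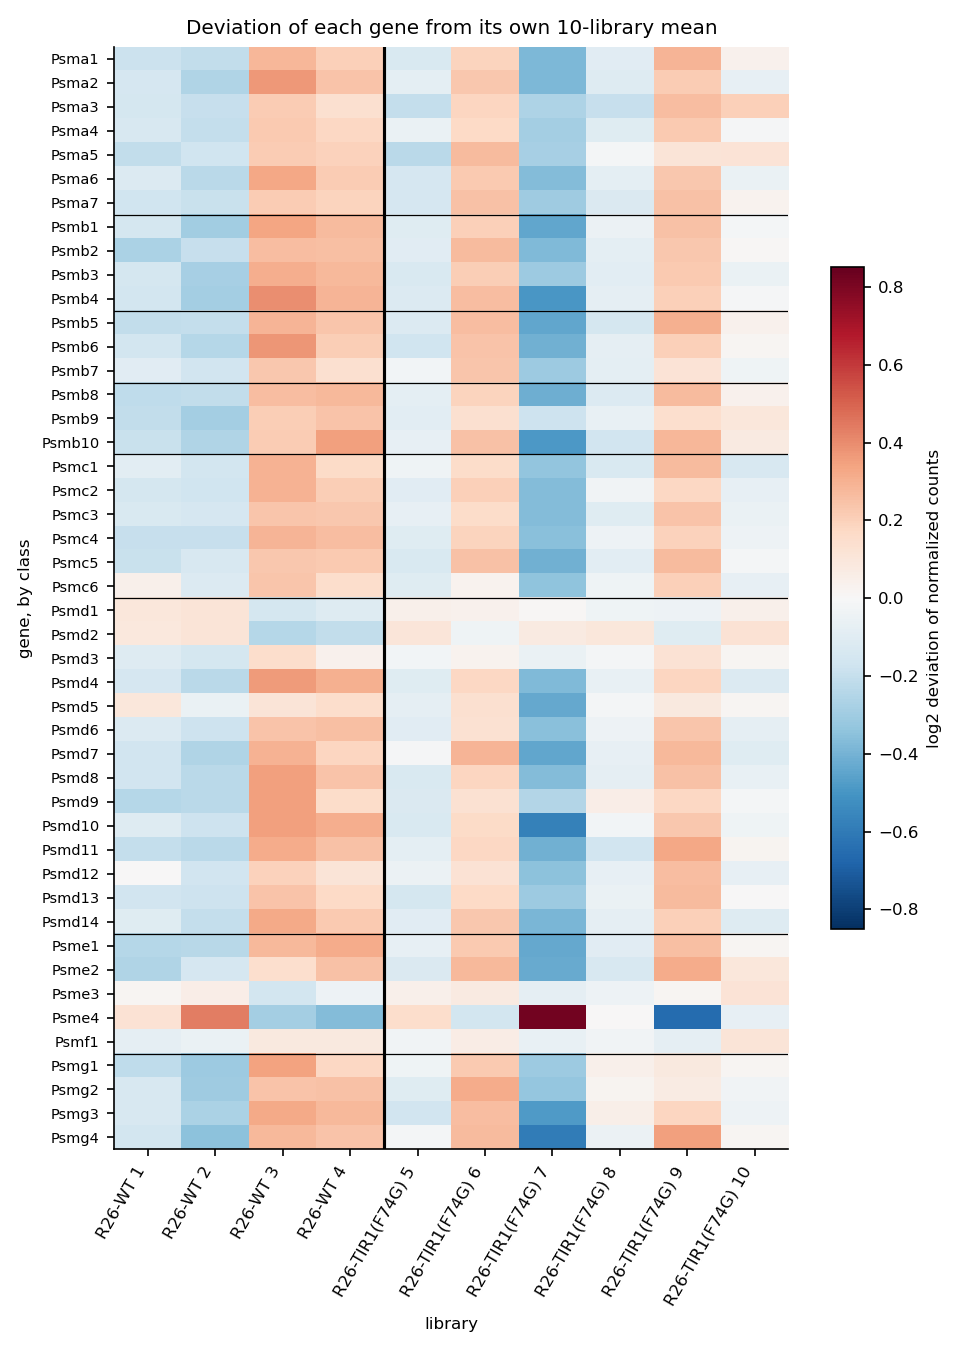
Deviation of each of the 46 genes (rows, grouped by class) from its own mean over 10 libraries (columns), in log2 normalized counts, red above and blue below. R26-WT replicates 3 and 4 and R26-TIR1(F74G) replicates 6 and 9 are red in nearly every row and R26-TIR1(F74G) replicate 7 is blue, while Psmd1, Psmd2 and Psme4 run the other way.

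The members lay on the same side as the members' median in at least 9 of the 10 libraries for 39 of the 46 genes, and in all 10 for 18. The 7 others were Psmg1, Psmd5 and Psmf1 (8 libraries each), Psme3 (4), Psmd1 (2), Psme4 (1) and Psmd2 (0). These 7 were singled out after their values were seen. Psme4, Psmd1, Psmd5 and Psmf1 have 4 of the 5 longest exon lengths among the 46, 8382, 7265, 7230 and 6441 bases, against a median of 2814. The other of the 5, Psmd9 (7248 bases), went with the majority, and so did the next longest, Psmd11 (6383 bases). Psmd2 (4038 bases) is above the median, but Psmc2 (5031 bases), Psmd3 (4967 bases) and Psmb1 (4595 bases) are longer and went with the majority. Psme3 (2949 bases) and Psmg1 (1344 bases) are not long. Whether length has a part in the side that a gene took was not tested.

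Transcript length moved with the same libraries over all genes. The 4745 tested genes under 2000 bases had median deviations of −0.086, −0.18, 0.27 and 0.19 in R26-WT replicates 1 to 4. In R26-TIR1(F74G) they were −0.25 in replicate 7 and 0.15 in replicate 9. The 3829 genes over 6000 bases went the opposite way, from −0.27 in R26-WT replicate 3 to 0.33 in R26-TIR1(F74G) replicate 7. After a trend on length and GC content was taken out of each library, the medians of the 46 genes were −0.10, −0.17, 0.19 and 0.20 in R26-WT and −0.084, 0.19, −0.32, −0.089, 0.17 and −0.012 in R26-TIR1(F74G). They kept their sign in all 10 libraries and were smaller in 8. In the DESeq2 fit with that trend removed, 0 of the 46 genes were called, beside 2.13% of all genes, and the median log2 fold change was −0.057. RNA integrity is given by the labels as a range over all samples and not by library, and its part in this spread was not tested.

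**Figure D5:**
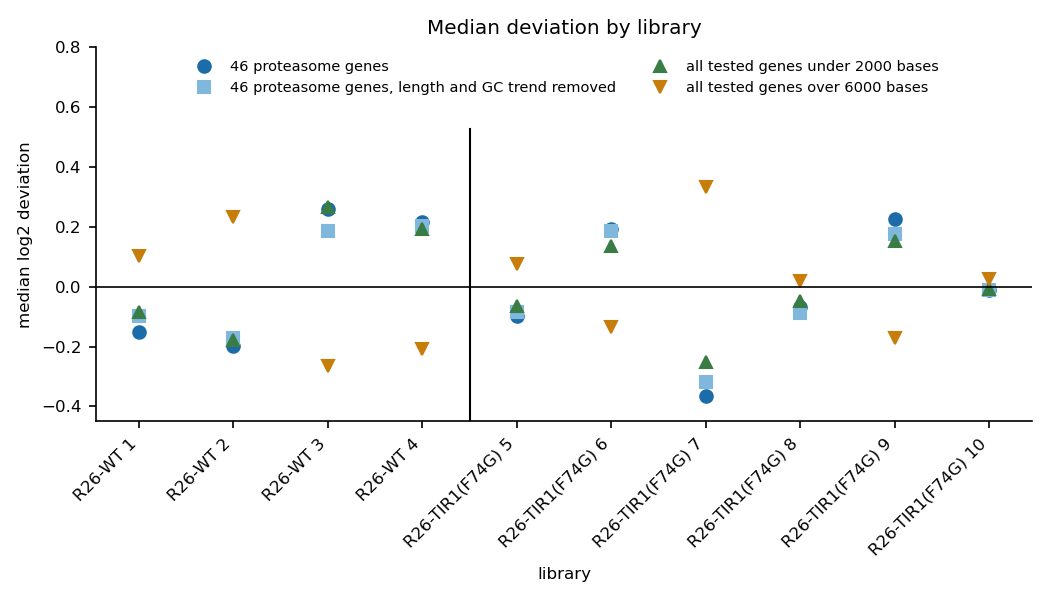
Median log2 deviation from each gene's own mean (y axis) by library (x axis), for the 46 proteasome genes as counted and with the trend on length and GC content removed, for all tested genes under 2000 bases and for those over 6000 bases. The proteasome medians lie on the side of the short genes in every library, between −0.37 and 0.26, and the long genes lie on the other side.

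Several members share much of their coding sequence with copies elsewhere in the genome, which limits what their counts can tell. Coding windows of 100 bases that occur again in the genome made up at least 10% of the windows in 7 of the 48 genes. The shares were 84.5% in Psma3, 49.7% in Psme2, 48.7% in Psma5, 31.6% in Psmb5, 23.3% in Psmb3, 14.4% in Psmd11 and 12% in Psma4. Read pairs of such stretches can be split between the rows or lost to the mapping quality minimum of 30. Psme2 and the intronless gene Psme2b (chromosome 11, 48836181 to 48837017, minus strand) differ at 5 of 717 coding bases (99.3% identity). Coding bases 514 to 543 are printed from GRCm39, with capitals at the differences, because they show how few bases separate the rows.
Psme2: ggggaCgctgtagccaaggcttccaaggaC
Psme2b: ggggaTgctgtagccaaggcttccaaggaT
Coding bases 1 to 30 of Psma5 and the matching bases of its processed pseudogene Psma5-ps (chromosome 10, 85149352 to 85150303, plus strand), with 98.9% identity over 723 bases, are set side by side for the same reason.
Psma5: atgttcctcactcggtccgagtacGacagg
Psma5-ps: atgttcctcactcggtccgagtacAacagg

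For Psme2, Psma3 and Psma5 the copies held about as many counts as the gene or more. Psme2b had 14417 ± 1604 normalized counts (SD) over 4 R26-WT libraries and 14222 ± 1762 over 6 R26-TIR1(F74G) libraries, 3.86 ± 0.253 times those of Psme2 over the 10 libraries. The processed pseudogene Gm13835 (chromosome 6, 31118914 to 31119598), identical to Psma3 over a run of 662 coding bases, had 3.15 ± 0.272 times the normalized counts of Psma3. For Psma5 the ratio was 1.01 ± 0.0852 for Gm12989 and 1.07 ± 0.0578 for Psma5-ps. For Psmb5 it was 0.279 ± 0.00992 for Gm3375. For Psmb3 it was 0.432 ± 0.0226 for Gm6467, which is annotated as a long non-coding RNA and was not added to Psmb3 in the fit below. The low levels of Psma3 (45.1 ± 4.56 TPM) and Psma5 (34.5 ± 3.02 TPM) beside the other alpha ring genes, and of Psme2 (145 ± 16.9 TPM) beside its partner Psme1, are therefore levels of the rows and uncertain as levels of the genes. With the counts of pseudogene and retrogene rows added to their parent in 6 genes, the log2 fold changes of Psma3, Psma5 and Psme2 became −0.061, −0.043 and −0.014, and 0 of 46 members were called. Other annotated genes overlapped at least 10% of the exon bases in 5 members, Psmd5 (15.3%), Psmb8 (14.7%), Psmb5 (12.1%), Psmb7 (11.8%) and Psmd13 (10.1%). A read pair on both genes was not counted.

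Genes that build, equip or feed the proteasome were examined beside the subunits. Of 13 partner genes, 12 had a row of that symbol and were tested, and 0 were called (median log2 fold change −0.016, 0 with an unadjusted p under 0.05, 0 by edgeR). Pomp, the maturation chaperone of the beta ring, had normalized counts of 7303 ± 1412 in R26-WT and 7416 ± 1251 in R26-TIR1(F74G) (mean ± SD over 4 and 6 libraries, as for the genes that follow). Adrm1, a ubiquitin receptor of the 19S particle, had 1534 ± 162 in R26-WT and 1776 ± 144 in R26-TIR1(F74G), a log2 fold change of 0.21 (SE 0.11) with an adjusted p of 0.765 by DESeq2. Sem1, the small lid subunit, had 5201 ± 1069.6 in R26-WT and 5078 ± 885 in R26-TIR1(F74G), and Usp14, the deubiquitinase that trims chains at the proteasome, had 4084 ± 129.7 in R26-WT and 4075 ± 273 in R26-TIR1(F74G). The log2 fold changes of Pomp, Sem1 and Usp14 were 0.022 (SE 0.17), −0.034 (SE 0.18) and −0.0034 (SE 0.085).

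Of 10 genes that control proteasome gene expression, 0 were called by DESeq2 or edgeR. An unadjusted DESeq2 p under 0.05 was found for 1 of the 10, and for 6.86% of all genes. Nfe2l1 had normalized counts of 3175 ± 1487 in R26-WT and 3365 ± 1236 in R26-TIR1(F74G), with a log2 fold change of 0.084 (SE 0.32). The 6 genes whose promoters hold TGACNNNGC, as printed above, had log2 fold changes of −0.042 (Psmb5), −0.085 (Psmb6), −0.13 (Psmc6), −0.054 (Psmd12), −0.027 (Psmd9) and 0.072 (Psme4), which lie within the range of the other members. The 1 with an unadjusted p under 0.05 was Nfe2l2, a relative of Nfe2l1, named after its values were seen, with 4067 ± 267 in R26-WT and 4769 ± 297 in R26-TIR1(F74G), a log2 fold change of 0.23 (SE 0.090) and a DESeq2 adjusted p of 0.288. The median of the list was 0.089, with 8 of 10 above 0, where 49.9% of all genes were below 0.

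Of 13 genes of ubiquitin supply and shuttling, 0 were called by either tool, with a median log2 fold change of 0.014 and 0 unadjusted. The ligase complex that TIR1 joins was likewise not called in any of its 10 genes by either tool, with a median of −0.071 and 0 unadjusted. Skp1, the adaptor that holds the F-box protein, had 18651 ± 2932 in R26-WT and 18125 ± 2499 in R26-TIR1(F74G). Cul1, the scaffold, had 5955 ± 946 in R26-WT and 5962 ± 325 in R26-TIR1(F74G), and Rbx1, the RING subunit, had 4286 ± 867 in R26-WT and 3995 ± 585 in R26-TIR1(F74G). Their log2 fold changes were −0.041 (SE 0.15), 0.0016 (SE 0.12) and −0.10 (SE 0.17), each smaller than its SE.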

How the data were processed

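Counts per gene were deposited by the authors as raw read pairs, 1 library per file. The authors used featureCounts 2.1.1, per the file headers, with GENCODE M30 (GRCm39), gene names and no strand option. Only primary alignments with both mates mapped to the same chromosome and mapping quality 30 or more were counted. Antisense genes cannot be separated, and read pairs on several genes were left out. The aligner was STAR by the study's methods, while the submitters' processing notes list Bowtie2. cDNA was amplified by PCR without molecular identifiers, so the limit given for a count of 0 covers counting error only, while fold intervals rest on the spread between libraries.

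The genotypes were compared in R 4.3.3 with DESeq2 1.42.0, as in the study's methods, on 16363 genes whose mean count was 10 or more (genotype as the only term, two-sided Wald test, Benjamini-Hochberg adjusted p under 0.05). The edgeR quasi-likelihood test (4.0.16) and limma voom (3.58.1) were alternatives. Fold intervals are the estimate ± 1.96 SE. TPM was computed from the counts and the deposited Length column. The trend on length and GC content was a natural spline with 5 degrees of freedom for each, fitted per library. Replicate pairs differed by far more than sampling noise (chi-square per degree of freedom from 10.3 to 239 in 21 pairs). Positions and copies came from the GRCm39 genome and GENCODE, and promoters from RefSeq.

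The named genes are the catalytic, immunoproteasome and tissue-restricted subunits, the activators and inhibitor, the highest and lowest fold change in each other class, the 3 smallest p-values and the 3 highest TPM values, with 8 genes from the pathway lists and any called. Psmd4, Psmd14, Tap1 and Irf1 were added for their roles, and exceptions are marked in the text. The members and lists were chosen with earlier results of these data known.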

Additional observations from a re-analysis of the deposited data

How the results depend on the processing

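No member was called under the main test or any of its 17 alternatives (edgeR, limma voom with quality weights, TMM size factors, no count filter, independent filtering off, a trend on length and GC content removed, each of 10 libraries left out, and retrocopy counts added to the parent gene). The smallest adjusted p of a member in all of them was 0.638, without R26-WT replicate 2, and no log2 fold change went past 0.25 in size. The sign of the members' values was not stable. Between 0 and 32 of the 46 changed sign, most without R26-WT replicate 3, and with a library left out the median ran from −0.12 to 0.024. Each class median moved by less than the spread between replicates. With the trend on length and GC content removed, the chaperone median went from −0.020 to 0.016, and Psmg1, Psmg2 and Psmg4 were above 0. That of the activators and inhibitor went from 0.010 to −0.019, and that of the 19S non-ATPases from −0.056 to −0.10. The genes called over all genes were 61 by edgeR and 80 by limma, against 284, and from 187 (without R26-WT replicate 4) to 346 with a library left out. For Psmf1 the log2 fold change moved to −0.095 with the trend removed. Without division by length the ratios were 10.9 for Psmb8 to Psmb5, 2.27 for Psmb9 to Psmb6 and 6.09 for Psmb10 to Psmb7, and with coding length 10.4, 2.46 and 6.18. The coding length and the retrocopy counts were chosen after seeing the data. No paired analysis was made because the replicate numbers, 1 to 4 in R26-WT and 5 to 10 in R26-TIR1(F74G), do not link libraries of the 2 genotypes. The numbers do not show whether litters or batches were shared. With 4 and 6 libraries the member SEs were 0.082 to 0.26 on the log2 scale, which sets the size of change that could be seen.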

Other observations

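Genes next to the proteasome in antigen presentation showed no call either. Of 10 genes of MHC class I peptide loading, 0 were called by DESeq2 or edgeR and 0 had an unadjusted p under 0.05. Their median log2 fold change was 0.066, with 7 of 10 above 0, where 49.9% of all genes were below 0. Their summed level was 19358 to 22851 TPM in R26-WT and 17258 to 21986 in R26-TIR1(F74G). Tap1, the peptide transporter gene that shares its promoter region with Psmb9, had normalized counts of 28626 ± 3528 in R26-WT and 30182 ± 3236 in R26-TIR1(F74G) (mean ± SD, 4 and 6 libraries), with a log2 fold change of 0.076 (SE 0.13). Of 15 interferon response genes, 0 were called by either tool and 0 had an unadjusted p under 0.05, with a median of 0.072. Irf1, a known activator of the immunoproteasome genes, had 26884 ± 3956 in R26-WT and 25747 ± 3397 in R26-TIR1(F74G), with a log2 fold change of −0.062 (SE 0.14).

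Cell division genes differed between the same libraries. Of 15 proliferation genes, DESeq2 called 12 (against 1.74% of all genes tested), all higher in R26-TIR1(F74G), and edgeR called 6 (against 0.373%), with a median log2 fold change of 1.43 over the 15. The list was chosen with this result known and is not independent evidence of its direction. Both tools called Cdk1, Birc5, Aurkb, Mcm5, Rrm2 and Stmn1, and DESeq2 alone called Mki67, Top2a, Ccnb2, Ccna2, Bub1 and Tyms. The 3 without a call were Ccnb1, Mcm2 and Pcna, with log2 fold changes of 1.08, 0.52 and −0.14. Mki67, a marker of cycling cells, had normalized counts of 127 ± 69.5 in R26-WT and 409 ± 226 in R26-TIR1(F74G), with an adjusted p of 0.00253 by DESeq2 and 0.176 by edgeR. Rrm2, a ribonucleotide reductase subunit, had 629 ± 116 in R26-WT and 1701 ± 423 in R26-TIR1(F74G), and Stmn1, a regulator of microtubules, had 214 ± 18.1 in R26-WT and 527 ± 77.6 in R26-TIR1(F74G). Their log2 fold changes were 1.70 (SE 0.40), 1.43 (SE 0.21) and 1.30 (SE 0.15). Over these same libraries no proteasome subunit gene was called, and whether the 2 groups of genes differ in their response was not tested.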
